A study of Mus musculus with 8 samples.

Results

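Podocytes are the cells that wrap the glomerular capillaries, and their interlocking foot processes are joined by the slit diaphragm, the last barrier that plasma crosses on its way to the urine. Nephrin and its partners form the diaphragm, a contractile actin skeleton holds the foot processes in shape, and integrins anchor them to the basement membrane. A small set of transcription factors, WT1 and LMX1B among them, keeps the cell in its mature state, and loss of many of these proteins causes proteinuria. The genes described here are 32 genes known from podocytes, taken by name. Of these, 31 were read from a probe set that names them alone, out of 19936 genes measured; the expression of Magi2, a scaffold gene of the slit diaphragm, was not analysed here.

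Whole-kidney RNA of 8 female mice of a mixed C57BL/6 and SV127 background was hybridised to Affymetrix mouse arrays, 1 array for each mouse. The 4 arrays labelled mutant are from Pax8-rtTA;LC-1;Vhl-floxed mice, and the 4 arrays labelled control are from littermates whose genotype is given only as control, so which of these alleles they carry is not given in the sources used here. From 3 weeks of age both groups received doxycycline (0.2 mg/ml, with 5% sucrose) in the water for 2 weeks and plain water for 1 week more, and kidneys were taken at 6 weeks of age. The Pax8 promoter drives the doxycycline-dependent activator in tubule epithelium, and LC-1 supplies Cre under its control; the series title places the loss of the VHL protein in tubular epithelial cells. Podocytes are thus a non-tubule compartment of the same RNA. Because whole kidney was used, fewer cells of a type and less RNA per cell cannot be told apart. Many of the genes, such as Actn4, Cd2ap, Itga3 and Myo1e, are also expressed outside podocytes.

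Values are log2 expression as the authors deposited them, and every difference below is the mean of the arrays labelled mutant minus that of the labelled controls. The array medians lay between 7.55 and 7.58, and the median standard error of a difference over all genes was 0.0718. The targeted gene went against the labels. Vhl read 8.34 ± 0.0909 in the arrays labelled mutant and 8.05 ± 0.118 in the labelled controls (SD over 4 arrays each), a difference of 0.29 that passed the test (limma adjusted p = 0.0387, but 0.0558 with the replicate number as a block). The Vhl call was lost in 9 of 17 alternatives, among them those leaving out any 1 of mutant arrays 2, 3 and 4 or control arrays 1, 2 and 3 (limma adjusted p 0.0785 to 0.114). Transcripts that HIF induces once VHL is lost ran against the labels too. In the arrays labelled mutant Egln3 was 7.81-fold and Car9 7.35-fold lower. Which part of the Vhl transcript the probe set covers is not given in the sources used here. Directions are therefore between the labels, and are not directions of Vhl loss.

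Most podocyte markers read near or above the middle of these arrays, and no background reading is at hand to show which were detected. Nphs1, Wt1, Podxl and Synpo, which mark the cell, read above every array's median on all 8 arrays, as did 27 of the 31 genes in all. That median is over all probe sets, 12146 of which were not listed with a gene. Among the 19936 genes ranked by mean, Podxl stood at percentile 97.1, Wt1 at 62.8, Nphs1 at 58.4 and Synpo at 54.6. Trpc6, Foxd1 and Sulf1 had means below every array median in both groups. No gene mean lay below the lower quartile of an array (6.21 to 6.28), the lowest being 6.88. A log2 value of one probe set is not comparable with that of another, so no order of abundance among the genes is given.

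The differences of the podocyte genes between the labelled groups were small in size, as were those of most genes. A difference above 0.3 in size was found in 3 of the 31 and in 1640 of all 19936 genes. With limma's test across all genes and an adjusted p under 0.05, 4 of the 31 fell and 0 rose: Podxl, Nes, Sema3g and Nebl were lower in the arrays labelled mutant, by 1.19-fold to 1.29-fold. This is 12.9% of the genes, beside 7.23% of all genes called in either direction, 4.64% lower and 2.59% higher. At an unadjusted p under 0.05, 7 of the 31 were lower, beside 11% of all genes, and 4 of the 31 were higher, beside 10.8%. The median difference of the 31 was -0.01, against 0.03 over all genes. The 95% intervals of all 31 lay within 1.5-fold of no difference in either direction, the outermost bounds being -0.54 for Nes and 0.40 for Plce1. For 13 genes the difference was under 0.1 in size.

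**Figure D1:**
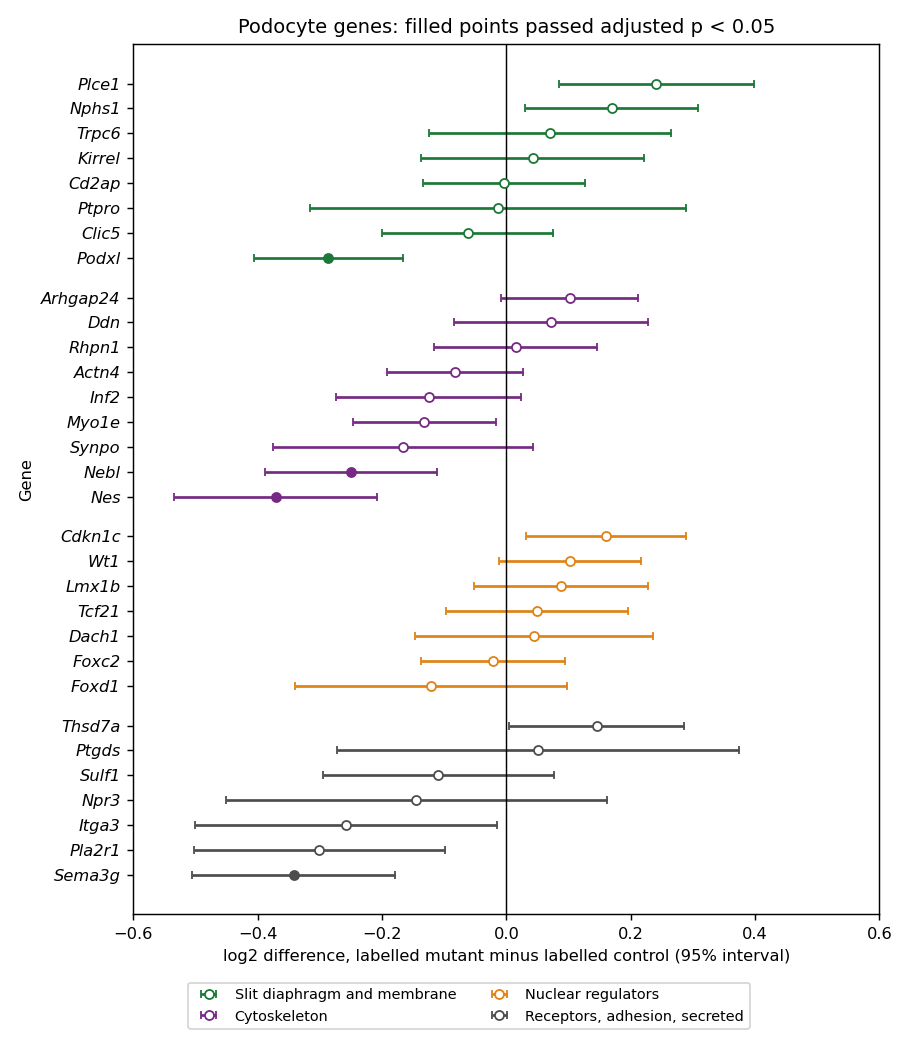
Log2 difference (arrays labelled mutant minus arrays labelled control, x axis) with its 95% interval from limma for the 31 podocyte genes (y axis), coloured by role, 4 arrays in each group. Filled points are the 4 genes that passed an adjusted p under 0.05, all of them lower, from -0.37 for Nes to -0.25 for Nebl.

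In 10 of the 31 genes (32.3%) the 4 arrays of one label lay entirely on one side of the other 4, beside 14.8% of all genes. In 5 of these the arrays labelled mutant were below (8.2% of all genes) and in 5 above (6.57% of all genes). The lower 5 were the 4 called genes and Myo1e, a motor protein gene. The higher 5 were Nphs1, Plce1, Cdkn1c, Wt1 and Arhgap24, none of which passed the test. Nephrin and WT1, used to identify podocytes, thus lay on the opposite side from podocalyxin and nestin.

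Sequence around the transcript start is shown for 5 genes, so that promoters of genes on the lower side (Nes, Sema3g, Nebl) can be read beside those of genes whose arrays labelled mutant were higher (Nphs1, Plce1). Each is 250 bases before to 50 bases after a start, from RefSeq on GRCm38.p6, given 5′ to 3′ on the gene's strand. Capitals mark any match, on either strand, to ACGTG (the core that HIF binds), GCGTGGG (a core bound by WT1 and by the EGR factors) or CAGCTG (an E-box of the kind that TCF21 binds).
Nes, chr3:87970843-87971142, plus strand: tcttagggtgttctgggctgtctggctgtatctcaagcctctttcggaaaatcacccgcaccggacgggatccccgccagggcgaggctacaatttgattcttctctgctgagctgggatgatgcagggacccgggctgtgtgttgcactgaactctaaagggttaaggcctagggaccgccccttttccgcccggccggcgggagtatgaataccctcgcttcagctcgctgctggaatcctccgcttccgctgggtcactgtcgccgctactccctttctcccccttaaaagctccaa
Sema3g, chr14:31217623-31217922, plus strand: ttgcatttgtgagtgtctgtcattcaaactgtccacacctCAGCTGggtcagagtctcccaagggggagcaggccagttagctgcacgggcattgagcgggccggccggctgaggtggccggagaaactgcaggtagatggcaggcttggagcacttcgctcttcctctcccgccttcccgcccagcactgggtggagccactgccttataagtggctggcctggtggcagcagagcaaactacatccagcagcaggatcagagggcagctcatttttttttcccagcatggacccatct
Nebl, chr2:17526081-17526380, minus strand: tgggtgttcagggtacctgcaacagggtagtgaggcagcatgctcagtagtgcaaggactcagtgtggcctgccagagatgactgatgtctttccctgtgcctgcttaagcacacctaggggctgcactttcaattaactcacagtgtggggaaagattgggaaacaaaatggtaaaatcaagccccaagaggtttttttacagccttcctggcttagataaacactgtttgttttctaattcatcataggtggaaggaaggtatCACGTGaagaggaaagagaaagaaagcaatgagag
Nphs1, chr7:30459808-30460107, plus strand: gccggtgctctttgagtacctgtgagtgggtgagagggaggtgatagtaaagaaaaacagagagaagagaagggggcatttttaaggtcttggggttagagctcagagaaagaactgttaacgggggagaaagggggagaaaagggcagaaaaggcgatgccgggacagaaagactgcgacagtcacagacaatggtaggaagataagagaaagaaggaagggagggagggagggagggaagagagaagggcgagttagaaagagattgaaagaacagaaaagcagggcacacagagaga
Plce1, chr19:38523947-38524246, plus strand: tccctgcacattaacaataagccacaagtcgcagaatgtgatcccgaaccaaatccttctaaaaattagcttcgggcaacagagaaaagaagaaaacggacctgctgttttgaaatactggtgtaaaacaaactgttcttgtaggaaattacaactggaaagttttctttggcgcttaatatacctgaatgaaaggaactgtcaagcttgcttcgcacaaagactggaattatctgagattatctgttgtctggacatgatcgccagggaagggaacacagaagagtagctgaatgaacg

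Among these 5 windows the Sema3g window held 1 CAGCTG, and the Nebl window held ACGTG on both strands, 2 matches that overlap in CACGTG. The Nebl window is 1 of 4 start entries for that gene, and the other 3 hold no ACGTG. It was picked for display because it holds ACGTG, so that match was fixed by the choice. Of the 32 genes, 23 had an entry, with 29 windows between them. ACGTG lay in 6 of the 29 windows (20.7%), those of Foxd1, Inf2, Lmx1b, Nebl and Trpc6, and in 19.6% of all 32851 windows. CAGCTG lay in 5 of the 29 (17.2%, against 16.3% of all windows) and GCGTGGG in 3 of the 29 (10.3%, against 5.04%), those of Actn4, Magi2 and Thsd7a. These matches describe letters in short windows and do not show binding.

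Genes of the slit diaphragm and the foot process membrane did not move together. Of the 8 measured, Podxl fell (12.5%, beside 4.64% of all genes called lower) and 7 did not pass the test, with a median difference of 0.02. Podxl encodes podocalyxin, the negatively charged sialomucin that keeps foot processes apart and that endothelial cells carry too. It read 11.75, 11.85, 11.88 and 11.73 in control arrays 1 to 4 and 11.50, 11.52, 11.56 and 11.49 in mutant arrays 1 to 4. All 4 arrays labelled mutant lay below all 4 arrays labelled control, and they spread less than the controls did. The means were 11.52 ± 0.0337 and 11.80 ± 0.0738 (SD, n = 4 each), 1.22-fold lower in the arrays labelled mutant (difference -0.29, 95% interval -0.41 to -0.17, limma adjusted p = 0.0108). Over the alternatives the adjusted p ran from 0.00301 to 0.0652, and the call was lost in 1 of 17, without mutant arrays 1 and 2 together.

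Nphs1 and Plce1 lay the other way. Nphs1 encodes nephrin, the adhesion molecule that spans the slit. It read 8.39, 8.36, 8.36 and 8.41 in the control arrays and 8.42, 8.63, 8.66 and 8.49 in the mutant arrays in replicate order. The groups did not overlap, although mutant array 1 lay just above control array 4. The difference was 0.17 (95% interval 0.03 to 0.31) and did not pass (limma adjusted p = 0.147). A dimmer probe set of Nphs1 had a difference of 0.22, and with the mean of both probe sets the gene passed as higher (limma adjusted p = 0.0412). Plce1, a phospholipase C gene whose loss causes childhood nephrotic syndrome, read 8.01, 8.19, 8.19 and 8.05 against 8.22, 8.32, 8.46 and 8.40. It was the podocyte gene with the largest difference upward, 0.24 (95% interval 0.09 to 0.40), and missed the threshold (limma adjusted p = 0.0714). It passed with the replicate block (0.0449), with quantile normalization (0.0382), with the upper 60% of probe sets (0.0483), with array weights (0.0473) and without mutant array 1 (0.0439), and its adjusted p over all alternatives reached 0.213.

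The other 5 genes of this role gave small differences with overlapping groups. Kirrel, whose product binds nephrin across the slit, differed by 0.04 (95% interval -0.14 to 0.22). Cd2ap, an adaptor that ties nephrin to actin, differed by -0.00404 (-0.14 to 0.13), and its sign turned with quantile normalization. Trpc6, a calcium channel, gave 0.07 (-0.13 to 0.26) and Clic5, a chloride channel family protein at the foot process membrane, gave -0.06 (-0.20 to 0.08). Ptpro, the podocyte membrane phosphatase GLEPP1, spread more widely: it ranged from 8.22 to 8.81 in the mutant arrays and from 8.37 to 8.82 in the control arrays. Its difference was -0.01 with an interval of -0.32 to 0.29, so changes of that size were not resolved for it.

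**Figure D2:**
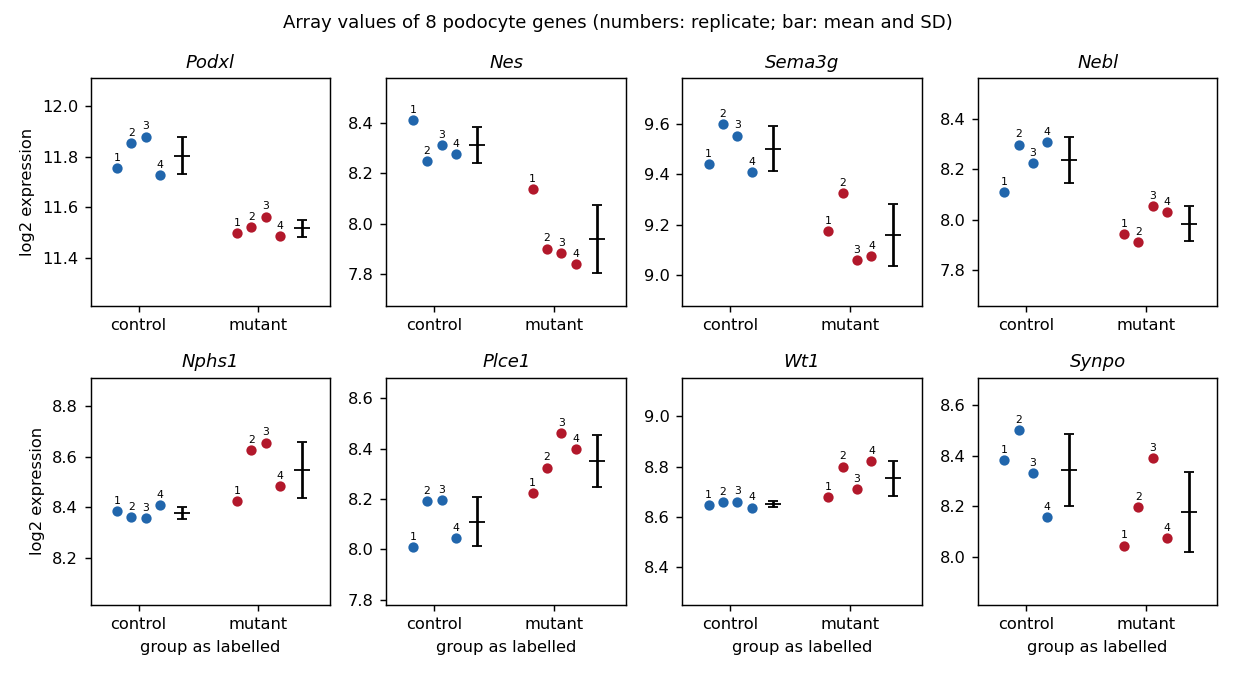
Log2 expression (y axis, each panel spanning the same range) of 8 podocyte genes on each array, with the replicate number beside each point and the mean and SD of the 4 arrays to the right. Podxl, Nes, Sema3g and Nebl show labelled mutant arrays below all labelled control arrays, Nphs1, Plce1 and Wt1 show them above, and Synpo overlaps.

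Among the cytoskeletal genes 6 of 9 differences lay below 0, as did 8349 of 19936 over all genes. Of the 9 measured, Nes and Nebl fell (22.2%, beside 4.64% of all genes called lower), 7 did not pass, and the median difference was -0.13. Nes encodes nestin, an intermediate filament protein of podocytes that is also made in endothelial cells. Its control arrays read 8.41, 8.25, 8.31 and 8.28 and its mutant arrays 8.14, 7.90, 7.88 and 7.84. Mutant array 1 stood nearest to the controls and the other mutant arrays lay close together. The difference was -0.37 (95% interval -0.54 to -0.21, 1.29-fold lower, limma adjusted p = 0.0139), the largest among the 31 genes. Its adjusted p ran from 0.00381 to 0.0720 over the alternatives, and the call was lost without mutant arrays 3 and 4 together.

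Nebl encodes nebulette, an actin-binding protein best known from heart muscle. The probe set used read 8.11, 8.30, 8.22 and 8.31 in the control arrays and 7.94, 7.91, 8.06 and 8.03 in the mutant arrays, without overlap. The difference was -0.25 (95% interval -0.39 to -0.11, limma adjusted p = 0.0389). A dimmer probe set of the gene went the other way: it read 6.72, 6.66, 6.75 and 6.71 in the control arrays and 6.81, 6.91, 6.94 and 6.77 in the mutant arrays, a difference of 0.15. With the mean of both probe sets the difference shrank to -0.05 (limma adjusted p = 0.603). The Nebl call was lost in 9 of 17 alternatives: with array weights (0.0595), when any 1 of mutant arrays 1, 2 and 4 or control arrays 2, 3 and 4 was left out (0.0630 to 0.112), and without mutant arrays 1 and 2 together (0.216) besides the mean of probe sets. RefSeq lists 4 start windows for Nebl, and which transcripts each probe set reads is not given in the sources used here.

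Synpo encodes synaptopodin, the actin-associated protein that defines mature foot processes. It read 8.38, 8.50, 8.33 and 8.16 in the control arrays and 8.04, 8.20, 8.39 and 8.07 in the mutant arrays. The groups overlapped, and the difference of -0.17 (95% interval -0.38 to 0.04) did not pass (limma adjusted p = 0.341). Myo1e, a class I myosin whose loss causes proteinuria, read 9.73, 9.77, 9.86 and 9.74 against 9.69, 9.59, 9.65 and 9.64. Its arrays labelled mutant lay below the controls by a mean of only 0.13, with little spread in either group (limma adjusted p = 0.173). Arhgap24, a RAC1-inhibiting GTPase activator, went slightly the other way without overlap, from 10.76, 10.74, 10.77 and 10.70 to 10.79, 10.84, 10.91 and 10.83 (difference 0.10, limma adjusted p = 0.264). The remaining cytoskeletal genes overlapped between groups. Actn4, the actin cross-linker mutated in familial glomerulosclerosis, differed by -0.08, and the formin gene Inf2 by -0.13. Ddn, which encodes dendrin, differed by 0.07, and Rhpn1 by 0.01.

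No transcription factor or nuclear regulator passed the test. Of 7 genes, 0 rose and 0 fell with limma, 1 had an unadjusted p under 0.05 (Cdkn1c, higher), and the median difference was 0.05. Wt1, the zinc finger factor that podocytes need throughout life, read 8.65, 8.66, 8.66 and 8.64 in the control arrays and 8.68, 8.80, 8.71 and 8.82 in the mutant arrays. The controls were nearly identical (SD 0.0110) and all arrays labelled mutant lay above them, by a mean of 0.10 (95% interval -0.01 to 0.22, limma adjusted p = 0.277). Cdkn1c encodes p57, the cell cycle inhibitor that keeps podocytes from dividing. Its control arrays read 8.75, 8.84, 8.90 and 8.93 and its mutant arrays 9.02, 8.94, 9.03 and 9.06. The lowest mutant array was just above the highest control array, and the difference of 0.16 (95% interval 0.03 to 0.29) did not pass (limma adjusted p = 0.138).

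The other 5 regulators overlapped between groups. Lmx1b, the factor mutated in nail-patella syndrome, differed by 0.09 (95% interval -0.05 to 0.23), Tcf21, a basic helix-loop-helix factor of podocytes and stroma, by 0.05, and Dach1 by 0.04. Foxc2, a forkhead factor of the early podocyte, differed by -0.02, with an interval of -0.14 to 0.09, and turned to 0.01 with quantile normalization. Foxd1, which marks the renal stroma as well as podocytes, varied as much within each group as between them (SD 0.157 and 0.163). Its difference was -0.12 (-0.34 to 0.10).

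**Figure D3:**
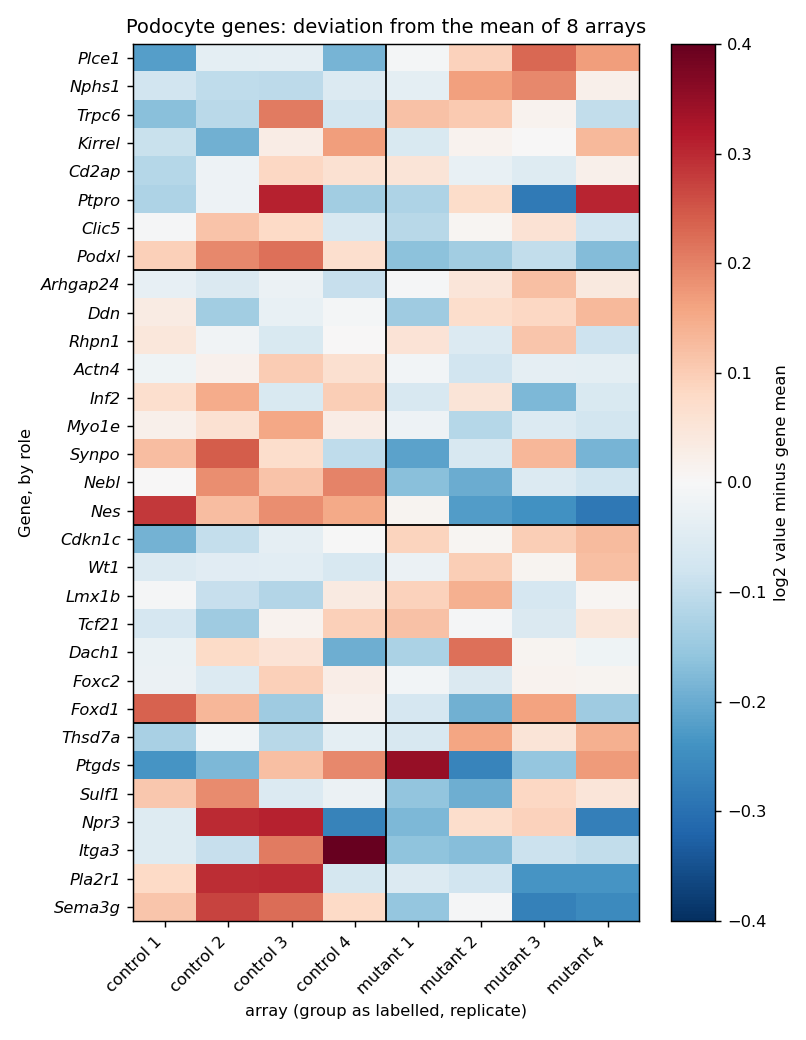
Deviation of each array (x axis, labelled control arrays at the left) from the gene's mean over 8 arrays, in log2 units by colour, for 31 podocyte genes (y axis) in the 4 role groups divided by lines. Podxl, Nebl, Nes and Sema3g are high at the left and low at the right, Plce1, Nphs1, Cdkn1c and Wt1 the reverse, and most other genes show no such block.

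Among receptors, adhesion molecules and secreted proteins, Sema3g fell and 6 of 7 did not pass, with a median difference of -0.15. The call is 14.3% of these genes, beside 4.64% of all genes called lower. Sema3g encodes a secreted class 3 semaphorin that podocytes and arterial endothelium make. Its control arrays read 9.44, 9.60, 9.55 and 9.41 and its mutant arrays 9.17, 9.33, 9.06 and 9.07. Mutant array 2 came closest to the controls, while mutant arrays 3 and 4 were lowest. The difference was -0.34 (95% interval -0.51 to -0.18, 1.27-fold lower, limma adjusted p = 0.0204). The gene no longer passed when mutant array 3, mutant array 4, control array 2 or control array 3 was left out (limma adjusted p 0.0526 to 0.0663), nor without mutant arrays 3 and 4 together (0.0926).

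Pla2r1, the phospholipase A2 receptor that is the main autoantigen of membranous nephropathy, read 8.29, 8.51, 8.51 and 8.14 in the control arrays and 8.16, 8.14, 7.98 and 7.98 in the mutant arrays. Control array 4 lay among the mutant arrays. The difference was -0.30 (95% interval -0.50 to -0.10) and did not pass (limma adjusted p = 0.0810), but it passed without control array 4 (0.0256) and with array weights (0.0472). Thsd7a, the other podocyte autoantigen of that disease, had control arrays at 8.71, 8.83, 8.73 and 8.80 and mutant arrays at 8.78, 9.003, 8.90 and 8.99. Its difference lay the other way, at 0.15 (0.005 to 0.29, limma adjusted p = 0.214), with mutant array 1 among the controls. Itga3 encodes the integrin chain that binds podocytes to laminin. It read 9.45, 9.41, 9.71 and 9.95 against 9.34, 9.33, 9.42 and 9.40, and its controls spread far more than its mutant arrays (SD 0.252 and 0.0432). Its difference of -0.26 did not pass (limma adjusted p = 0.203).

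The remaining 3 genes varied within groups by more than between them. Npr3, the natriuretic peptide clearance receptor, ranged from 8.38 to 8.74 in the mutant arrays and from 8.38 to 8.96 in the control arrays. Ptgds, a prostaglandin D synthase gene, ranged from 9.32 to 9.93 and from 9.35 to 9.78, the widest spread within the arrays labelled mutant among the 31 genes (SD 0.284). Sulf1, a heparan sulfate sulfatase gene, differed by -0.11 (95% interval -0.30 to 0.08).

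Averaged over the 31 genes, the arrays labelled mutant lay between 8.92 and 8.95 and the arrays labelled control between 8.94 and 9.02. Control array 3 held the highest value of 9 genes and mutant array 2 the lowest of 8. Among all genes control array 3 was highest for 12.7% and mutant array 2 lowest for 11.8%. The ranges of the labelled groups thus overlapped in this average. Within each of the 4 replicate numbers the array labelled mutant was the lower: 8.92 against 8.94, 8.94 against 8.99, 8.95 against 9.02 and 8.94 against 8.97. The labels do not say that a number pairs the arrays. No array was highest or lowest for most of the genes. By role, the cytoskeletal mean was 8.99 to 9.05 in the mutant arrays and 9.10 to 9.12 in the control arrays. The mean of receptors, adhesion and secreted proteins was 8.70 to 8.71 and 8.75 to 8.92. Nuclear regulators lay the other way, at 8.67 to 8.69 and 8.63 to 8.65. The slit diaphragm mean overlapped, at 9.22 to 9.30 and 9.18 to 9.36. These means were not tested.

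Other genes of the podocyte were read from a separate list, 36 of them with values. Of the 36, 6 fell, 1 rose and 29 did not pass, with a median difference of -0.06. The calls are 19.4% of the list (16.7% lower), beside 7.23% of all genes (4.64% lower). In 38.9% of the list the labelled groups did not overlap, beside 14.8% of all genes. The list mean was 9.18 to 9.22 in the arrays labelled mutant and 9.30 to 9.35 in the arrays labelled control. Anln, an actin-bundling protein gene of dividing cells that is mutated in familial glomerulosclerosis, was 1.84-fold lower (6.30 ± 0.194 against 7.18 ± 0.267). The lower of these means lay close to the lower quartile of the arrays (6.21 to 6.28), and the upper 60% of probe sets left Anln out. Vegfa, the growth factor that podocytes send to the capillary and that HIF induces in many cells, was lower by 1.79-fold, at 11.25 ± 0.0448 against 12.09 ± 0.0322 (SD, 4 arrays each). The scaffold gene Slc9a3r2, which links podocalyxin to ezrin and is also expressed in endothelium, was 1.42-fold lower, and Fyn, the kinase that phosphorylates nephrin, was 1.41-fold lower. Dpysl2 was 1.23-fold lower, and the ephrin gene Efnb1, outside the naming rule and chosen after its value was seen, was lower by 1.19-fold. The Efnb1 call was lost in 6 of 17 alternatives, among them those without mutant array 2, mutant array 4, control array 1 or control array 2 (limma adjusted p 0.0569 to 0.0670). Iqgap2 rose 1.21-fold, although it did not pass with the replicate block (limma adjusted p = 0.0839), nor with any single array left out other than mutant array 1 (0.0682 to 0.119). The slit diaphragm genes of the list did not pass: Kirrel2 differed by 0.06, Kirrel3 by 0.13 and Crb2 by 0.13, the junction gene Tjp1 by -0.20 and the giant cadherin gene Fat1 by -0.20; these 5 were chosen after their values were seen. Tjp1 passed with the upper 60% of probe sets (limma adjusted p = 0.0392) and with a trended, robust fit (0.0394).

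In the glomerular basement membrane list, which podocytes and endothelium build together, 3 of 14 genes fell and 0 rose with limma (5 lower and 0 higher at an unadjusted p under 0.05). The 3 are 21.4% of the list, beside 4.64% of all genes called lower. The nidogen genes Nid1 and Nid2 were 1.603-fold and 1.46-fold lower and the laminin chain gene Lamc1 1.36-fold lower. Lamc1 did not pass without mutant array 2, control array 1, control array 2 or control array 3 (limma adjusted p 0.0538 to 0.0670). The collagen chains that podocytes supply differed less: Col4a3, Col4a4 and Col4a5 gave -0.11, -0.05 and -0.04, and Lamb2, a laminin chain of the mature glomerulus, gave -0.07. These 4, named after their values were seen, did not pass the test.

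Markers of neighbouring cells are given beside these values, since RNA of all cells was pooled in each kidney. For comparison with the counts that follow, 4.64% of all genes were called lower and 2.59% higher. Of 10 endothelial markers 9 fell and 0 rose, with a median difference of -0.69. They included Ehd3, which is enriched in glomerular endothelium (1.61-fold lower), and the pan-endothelial genes Kdr, Cdh5, Tie1, Flt1 and Pecam1 (1.63-fold to 1.86-fold lower). Their list mean was 9.91 to 10.03 in the arrays labelled mutant and 10.52 to 10.70 in the arrays labelled control, without overlap. Podxl, Nes and Sema3g, the 3 called podocyte genes that endothelium also expresses, were lower in the same arrays, with differences of -0.29, -0.37 and -0.34. The part of endothelial RNA in those 3 results was not tested. Of 9 mesangial and pericyte markers 3 fell (Acta2, Tagln and Pdgfrb, 1.28-fold to 1.62-fold lower). The list means were 8.89 to 9.14 in the arrays labelled mutant and 9.20 to 9.39 in the arrays labelled control. The other 6 did not pass. Itga8 differed by -0.02, Gata3 by 0.02, Ptn by -0.02, Cspg4 by 0.02, Des by -0.17 and Rgs5 by -0.33. Tagln did not pass without mutant array 2 or any 1 of control arrays 2, 3 and 4 (limma adjusted p 0.0594 to 0.0898). Of 8 fibroblast markers 3 fell (Lum, Dcn and Fbln5, 1.31-fold to 2.06-fold lower), with list means of 8.93 to 9.03 and 9.20 to 9.42. The other 5 did not pass. Pdgfra differed by 0.09, Col1a1 by -0.04, Col1a2 by -0.12, Col3a1 by -0.15 and Mfap5 by -0.35. The uncalled genes named here from both lists fall outside the naming rule, and the alternatives were not run for them singly. Fbln5 did not pass when 1 of these 5 was dropped: mutant arrays 1 and 2 and control arrays 1, 2 and 3 (limma adjusted p 0.0521 to 0.109).

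The tubule markers that passed the test were all higher. Of 7 proximal tubule markers Aqp1 rose 1.22-fold, of 6 loop and distal tubule markers Calb1 and Cldn16 rose 1.45-fold and 1.42-fold, and of 6 collecting duct markers Aqp3 and Hsd11b2 rose 1.36-fold and 1.24-fold. Aqp3 did not pass when a single one of mutant arrays 1, 2 and 4 and control arrays 2 and 3 was dropped (limma adjusted p 0.0598 to 0.106), nor Hsd11b2 when control array 3 was (0.0510), so the count for the collecting duct ran from 0 to 2 with 1 array left out. In these 3 lists 0 genes fell with limma, and 1, the intercalated cell pump gene Atp6v1g3, was lower at an unadjusted p under 0.05. Among 7 parietal epithelial and 6 immune markers none passed limma's test, with Vcam1 higher (difference 0.44) and the macrophage gene Cd68 lower (-0.24) at an unadjusted p under 0.05; with the replicate block Cd68 passed (limma adjusted p = 0.0334). The largest immune difference was that of Lyz2, at -0.39 (limma adjusted p = 0.325). Atp6v1g3 and Cd68 fall outside the naming rule and were picked with their values in view. The immune list mean ranged from 7.69 to 8.42 in the arrays labelled mutant, mutant arrays 3 and 4 being lowest, and from 8.06 to 8.37 in the arrays labelled control.

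**Figure D4:**
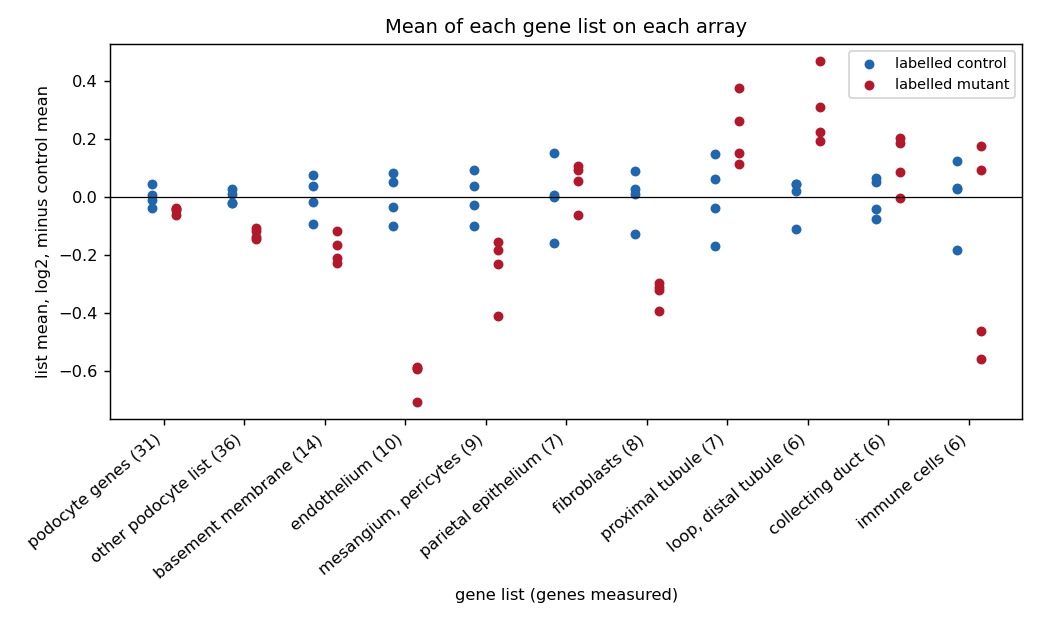
Mean log2 expression of each gene list on each array, minus the mean of the 4 labelled control arrays (y axis), for the podocyte genes, related lists and markers of other kidney cells (x axis, genes measured in brackets). Podocyte genes lie near 0 in both groups, the endothelial list is lower in every array labelled mutant (9.91 to 10.03 against 10.52 to 10.70), and the loop and distal tubule list is higher.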

How the data were processed

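The authors deposited log2 expression values for 35556 probe sets on 8 arrays. Background correction, summarization, normalization between arrays and genome build are not given in the sources used here; limma is named, with no version, in the submitters' processing notes. Probe sets were named from the platform's annotation, updated to GRCm38.p6 RefSeq symbols: 21789 named 1 gene, 1621 several and 12146 were not listed. A gene with several probe sets was read from the one whose mean over 8 arrays was highest. The model was lmFit and eBayes of limma 3.58.1 (R 4.3.3), with the labelled group as its factor and a two-sided test, its p-values adjusted by Benjamini-Hochberg over 19936 genes; a call is an adjusted p under 0.05. Nothing was filtered or renormalized. The fit was also run on simulated data with independent noise on each array, unlike the correlations between same-numbered arrays given below. That run does not show how well the calls made here hold.

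The genes, lists and alternatives were chosen with earlier results of these data known. All array values are given for called genes, for further genes by unadjusted p up to 12, and for Nphs1, Podxl, Wt1 and Synpo. From each other list the called genes were named, at most 6 by size, or else the gene with the largest difference. The labels give both groups replicate numbers 1 to 4. Deviations from group means correlated between same-numbered arrays at 0.138, 0.153, 0.295 and 0.175. Between arrays of unlike number they correlated at -0.193 to 0.111. The main fit did not pair the arrays. Pairing by number, with the replicate number as a block, was used only as an alternative and rests on the data alone. The number of arrays limits the precision.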

Additional observations from a re-analysis of the deposited data

Results flagged for a closer look

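None of the 62 groups of 4 arrays of the podocyte genes held an array that stood far from the other 3 by Dixon's criterion. Over the 150 groups of all 75 genes examined, 3 did, where chance gives about 1 in 20. For Acta2, control array 4 read 11.11 and the other control arrays 11.23 to 11.26. For Aqp3, control array 3 read 9.58 and the others 9.94 to 10.01. For Atp6v1g3, mutant array 4 read 10.14 and the other mutant arrays 9.999 to 10.02.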

How the results depend on the processing

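The count of 4 podocyte genes lower was 3 or 4 under most alternatives. It was 2 without mutant arrays 1 and 2 together (Nes and Sema3g), 2 without mutant arrays 3 and 4 together (Nebl and Podxl), and 0 at an adjusted p under 0.01. Leaving out 1 array at a time it ran from 2 to 4, with 2 without mutant array 4, control array 2 or control array 3. The count higher, 0, became 1 with quantile normalization, the upper 60% of probe sets, array weights or the replicate block (Plce1 each time) and with the mean of probe sets (Nphs1); it ran from 0 to 1 with 1 array left out. With the replicate block 5 of the 31 genes passed, and of the podocyte genes only the call of Plce1 changed; among the other named genes the block ended the calls of Vhl (limma adjusted p = 0.0558) and Iqgap2 (0.0839), and Cd68 passed as lower (0.0334). Without mutant arrays 1 and 2 together Calb1, Dcn, Dpysl2 and Nid2 no longer passed (limma adjusted p 0.0513 to 0.0884). Nor did Aqp3, Efnb1, Fbln5, Hsd11b2, Lamc1, Tagln and Vhl (limma adjusted p 0.0661 to 0.220). Lyz2 then passed as lower (0.0112), and the count lower in the basement membrane list was 1. Without mutant arrays 3 and 4 together Pdgfrb, Efnb1, Iqgap2 and Vhl no longer passed (limma adjusted p 0.0561 to 0.128). Vcam1 then passed as higher (0.0181). Over all genes 1442 passed, 602 at an adjusted p under 0.01, and 902 to 1368 with 1 array left out (917 without mutant array 2, 903 without control array 2, 902 without control array 3).

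Of 526 values of single podocyte genes under the alternatives, 473 kept their direction and their side of the threshold. None of the 4 called podocyte genes changed direction under these alternatives. The genes that did were uncalled, and the cause was not tested. With quantile normalization Cd2ap turned to 0.0496, Ptpro to 0.0156 and Foxc2 to 0.0121, and with array weights Cd2ap to 0.0153 and Ptpro to 0.0278. Without mutant arrays 3 and 4 Kirrel turned to -0.00234, Cd2ap to 0.0103, Ddn to -3.6e-05 and the immune gene Lyz2 to 0.0178. Without mutant arrays 1 and 2 Trpc6 turned to -0.00696, Ptpro to 0.00464, Foxc2 to 0.000305, Sulf1 to 0.0118, and outside the podocyte genes Col4a4 to 0.0625 and Crb2 to -0.00468. With 1 array left out at a time the differences ran from -0.0143 to 0.105 for Kirrel, from -0.0429 to 0.0231 for Cd2ap, from -0.118 to 0.0873 for Ptpro, from -0.0201 to 0.045 for Rhpn1, from -0.0439 to 0.00642 for Foxc2, from -0.0221 to 0.0936 for Dach1 and from -0.0577 to 0.146 for Ptgds; for Col4a4 they ran from -0.116 to 0.0337. The small number of arrays and the lack of any background reading limit what could be detected.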
